A study of Mus musculus with 6 samples.

Results

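Complement is the plasma and cell-surface protein system that tags particles and cells for removal, releases the anaphylatoxin fragments that draw in leukocytes, and assembles pores in membranes. Most of its soluble proteins are made by hepatocytes, while the C1q chains and properdin come mainly from macrophages and other leukocytes. The classical, lectin and alternative pathways all lead to cleavage of C3 and then of C5, and the terminal components C5 to C9 form the membrane attack complex. The 32 genes described here are complement components, regulators and receptors, chosen by symbol. All 32 were found among the 55802 rows of the count table, each with 1 row, and all 32 passed the filter on low counts. Cfd passed it only through its control libraries.

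The libraries were made from total RNA of whole liver of wild-type (WT) C57BL/6 mice. In the first group, 3 libraries came from livers of mice given CCl4, carbon tetrachloride. Hepatocytes activate this solvent to a radical, and it is used to injure the liver and bring about fibrosis. In the other group, 3 libraries came from livers of control mice given oil. The sources used here give no dose, duration, age or sex. They also do not say whether each library was a separate animal, so each n below counts libraries. The p-values below speak of the spread among these 6 libraries, part of which may be technical. Library totals ran from 18929972 to 20042731 counts. The hepatocyte markers together held 122430 to 131742 CPM (counts per 1000000, on TMM-scaled library sizes) in CCl4 livers and 117978 to 123612 CPM in control livers, a sum of which Alb, the albumin gene, held the most (73971 CPM in CCl4 livers and 71800.2 CPM in control livers on average). Of these 10 markers 3 were higher, 3 lower and 4 not called, among them Ambp (log2 fold change 0.53), Trf (0.47), Apoa2 (-0.44) and Apob (-0.36), which were called. CCl4 replicate 3 stood apart from the other CCl4 libraries, with a mean chi-square per gene of 25.8 and 20.1 against CCl4 replicates 1 and 2, where those differed from each other by 5.71.

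After CCl4 the genes of complement moved in both directions. The 3 C1q chains, both anaphylatoxin receptors, C3, properdin and factor I rose, whereas most lectin pathway genes, all 3 chains of C8, C6 and C1ra fell. EdgeR's quasi-likelihood test was used with Benjamini-Hochberg adjustment over all genes. At an adjusted p under 0.05, 8 of the 32 genes were higher, 13 lower and 11 not called. Cfd, which passed the filter through its control libraries alone, is among the 13. Over all 15579 genes tested, 21.2% were called higher, 20.1% lower and 41.3% in either direction. The share among genes with a mean of at least 10 CPM was 46.6%. The CPM values of the groups did not overlap for 22 of the 32 genes, against 54.0% of all genes tested. The median log2 fold change of the 32 genes was -0.12, beside 0.000564 over all genes. Without CCl4 replicate 3, 9 were higher and 11 lower: C2 and Cfd lost their calls and C4bp gained one.

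**Figure D1:**
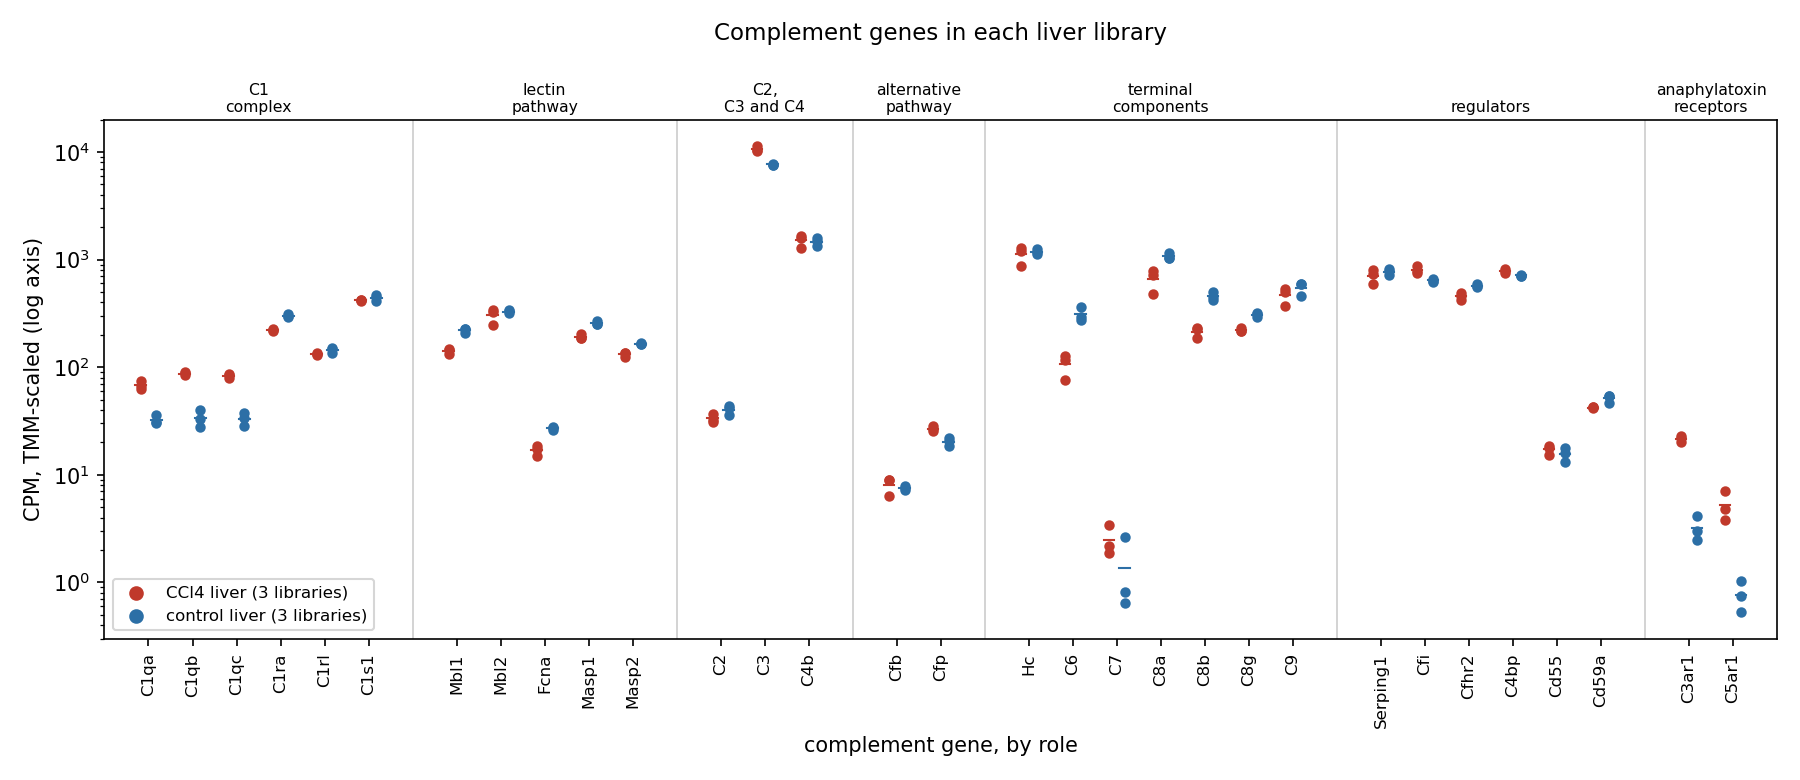
CPM (TMM-scaled, log axis) of 31 complement genes in 3 CCl4 liver libraries (red, left) and 3 control liver libraries (blue, right). Genes are grouped by role, with a short line at each mean. Cfd is left out because 2 of its CCl4 values are 0. C3 lies at 7581 CPM or above in every library, while C3ar1 and C5ar1 lie apart in the groups, with every CCl4 library above every control library.

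C3 dominated the set. It made up 1.17, 1.09 and 1.10% of all counts in CCl4 replicates 1, 2 and 3, against 0.724, 0.724 and 0.737% in control replicates 1, 2 and 3. The 32 genes together took 1.95 to 2.17% of the counts in CCl4 livers and 1.65 to 1.73% in control livers. C3 accounted for 52.6 to 56.6% of the counts of the set in CCl4 livers and for 41.7 to 44.6% in control livers. Per kilobase of exon in the GENCODE M21 annotation, the level of C3 was 2072 CPM in CCl4 livers and 1492 CPM in control livers. The next highest levels per kilobase were those of Cfi in CCl4 livers (362 CPM) and of Serping1 in control livers (332 CPM). The lowest were those of Cfd in CCl4 livers (0.0358 CPM) and C5ar1 in control livers (0.299 CPM). The lengths count every exon base annotated for a gene, so these ranks depend on the annotated transcripts.

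The stretches before the start sites of C1qb and C1qc are shown because these neighbouring genes rose together, and that of C3 because it is the most abundant member that rose. Each is the 250 bases before the RefSeq start site on GRCm38.p6, 5′ to 3′ on the gene's strand, while the build used for the counts is unknown from the sources used here. Capitals mark GAGGAA or its reverse complement TTCCTC, the core word of PU.1 (an ETS factor of macrophages). C1qb lies at chr4:136886201-136886450, C1qc at chr4:136892915-136893164 and C3 at chr17:57228137-57228386, all on the minus strand.
C1qb: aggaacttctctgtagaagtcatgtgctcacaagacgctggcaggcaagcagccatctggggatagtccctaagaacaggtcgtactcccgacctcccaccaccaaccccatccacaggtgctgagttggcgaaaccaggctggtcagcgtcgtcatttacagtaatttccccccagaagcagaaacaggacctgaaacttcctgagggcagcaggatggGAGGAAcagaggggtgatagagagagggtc
C1qc: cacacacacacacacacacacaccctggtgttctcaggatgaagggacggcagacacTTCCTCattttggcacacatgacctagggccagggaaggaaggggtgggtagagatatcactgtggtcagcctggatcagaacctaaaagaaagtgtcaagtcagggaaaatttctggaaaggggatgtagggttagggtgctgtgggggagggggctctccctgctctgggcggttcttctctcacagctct
C3: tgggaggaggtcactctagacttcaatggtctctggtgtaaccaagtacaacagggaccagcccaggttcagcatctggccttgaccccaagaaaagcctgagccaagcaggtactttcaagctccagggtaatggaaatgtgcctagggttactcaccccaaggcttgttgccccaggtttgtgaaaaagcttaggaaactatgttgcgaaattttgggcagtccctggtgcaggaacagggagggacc

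RefSeq start sites were found for 25 of the 32 genes, with 27 stretches of 250 bases, and 4 words were searched on both strands. GAGGAA was found in 4 of the 27 stretches, and 23.25% of all 32851 stretches of that length hold it. These were at C1qb and C1qc, which rose, and at Cd59a and Fcna, which fell. No start site was found for C1qa, which also rose. TTCNNNGAA, a STAT word, was found at C7, C8a and Masp2, where 7.02% of all stretches hold it. TTGNNCAA, a palindromic C/EBP word, was found at C8g, where 5.65% of all stretches hold it. A word of HNF1, a factor of hepatocytes, made of GTTAAT, 1 free base and ATT, was found at C4bp, Cfhr2 and Hc, and 0.37% of all stretches hold it. No stretch of these genes held more than 1 of the 4 words, so the matches did not overlap. A match is a description of the letters and not a binding site.

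The 60 bases around each HNF1 word are shown with the word in capitals, since it is the rarest of the words searched. They lie on the minus strand at chr1:130661648-130661707 for C4bp, chr1:139858776-139858835 for Cfhr2 and chr2:35061456-35061515 for Hc. The word ends 54 bases before the start site of C4bp, 101 before that of Cfhr2 and 68 before that of Hc. Of these 3 genes Cfhr2 fell and the other two were not called.
C4bp: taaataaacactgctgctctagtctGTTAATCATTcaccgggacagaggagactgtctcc
Cfhr2: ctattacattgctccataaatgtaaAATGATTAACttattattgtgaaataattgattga
Hc: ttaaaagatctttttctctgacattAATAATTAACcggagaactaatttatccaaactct

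C1 is the starter of the classical pathway, in which the C1q chains recognise bound antibody and other targets. The protease C1r activates the protease C1s, which cuts C4 and C2. C1qa (ENSMUSG00000036887) stood at 67.1, 63.3 and 73.9 CPM in CCl4 livers and at 30.8, 36.0 and 30.6 CPM in control livers. C1qb (ENSMUSG00000036905) stood at 87.9, 83.9 and 90.3 CPM in CCl4 livers and at 33.3, 39.8 and 27.8 CPM in control livers. C1qc (ENSMUSG00000036896) stood at 84.5, 79.4 and 87.2 CPM in CCl4 livers and at 33.5, 37.7 and 28.6 CPM in control livers. For each chain, every CCl4 library lay above every control library. C1qa rose 2.10-fold (log2 fold change 1.07, SE 0.08, adjusted p = 1.89e-05), C1qb 2.60-fold (1.38, SE 0.12, adjusted p = 9.35e-05) and C1qc 2.52-fold (1.33, SE 0.09, adjusted p = 1.46e-05). C1qa made up 27.9 to 29.4% of the summed CPM of the chains in CCl4 livers and 31.6 to 35.1% in control livers.

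Macrophage genes moved with the C1q chains. All 10 macrophage and monocyte markers were higher, and their summed level was 888 to 942 CPM in CCl4 livers and 274 to 359 CPM in control livers. Of 8 markers of resident Kupffer cells, the macrophages of the liver sinusoids, 3 were higher, 2 (Timd4 and Cd163) lower and 3 not called, with a summed level of 413 to 467 CPM in CCl4 livers and 252 to 313 CPM in control livers. The summed C1q chains were 0.257, 0.255 and 0.267 times the macrophage and monocyte markers in CCl4 livers, against 0.316, 0.316 and 0.317 times in control livers. Relative to the Kupffer cell markers the same sum was 0.513, 0.530 and 0.609 in CCl4 livers, against 0.381, 0.363 and 0.345 in control livers. The C1q sum thus lay lower in CCl4 livers beside the first sum and higher beside the second, without overlap in either case. The most abundant marker in CCl4 livers was Lyz2 in the first sum (298 CPM on average) and Cd5l in the second (232 CPM). By log2 fold change, Lyz2, Ctss, Fcgr3, Cd68, Cd14 and Laptm5 rose more than every C1q chain. Csf1r and Aif1 rose less than every chain, and Adgre1 and Mpeg1 lay between. The ratios compare whole-liver RNA, in which more cells of a type and more RNA per cell cannot be told apart. The part of the macrophage markers in the rise of the C1q chains was not tested.

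**Figure D2:**
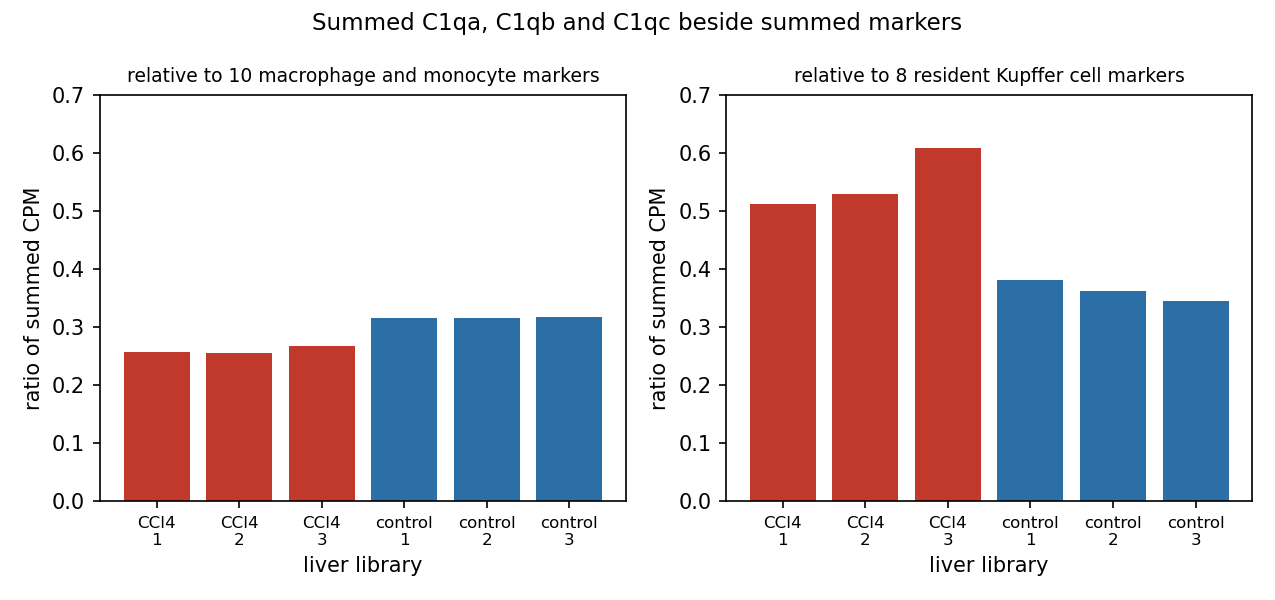
Summed CPM of C1qa, C1qb and C1qc divided by the summed CPM of 10 macrophage and monocyte markers (left panel) and of 8 resident Kupffer cell markers (right panel), with 1 bar per library, CCl4 in red and control in blue. The bars of CCl4 livers reach 0.255 to 0.267 on the left, under those of control livers, and 0.513 to 0.609 on the right, above them.

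The proteases of C1 did not follow the chains. C1ra, which encodes C1r, stood at 225, 223 and 217 CPM in CCl4 livers and at 314, 298 and 293 CPM in control livers, with no overlap. The log2 fold change was -0.45 (SE 0.06, adjusted p = 2.66e-04). C1s1, which encodes C1s, stood at 409.8, 421 and 423 CPM in CCl4 livers and at 464, 451 and 413 CPM in control livers (-0.08, 95% interval -0.23 to 0.06, adjusted p = 0.316). The ratio of C1ra to C1s1 counts, which no scaling enters, was 0.531 ± 0.0184 in CCl4 livers and 0.682 ± 0.0245 in control livers (SD, n = 3 each). C1rl, a C1r-like protease, averaged 133 ± 3.28 CPM in CCl4 livers and 145 ± 7.38 CPM in control livers (SD, n = 3 each) and was not called (edgeR adjusted p = 0.101). Without control replicate 2 it was called at -0.17 (adjusted p = 0.0497), and with library size alone its log2 fold change was 0.02. C1ra and C1s1 have the near copies C1rb and C1s2 in the mouse genome, and the sources used here do not say how reads that match both copies were treated.

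In the lectin pathway, mannose-binding lectins and ficolins bind sugars and activate the proteases of the Masp genes. Of 5 genes, 4 fell: Fcna, Mbl1, Masp1 and Masp2. Over all genes tested, 20.1% were called lower. Mbl1, a mannose-binding lectin, stood at 145, 149 and 132 CPM in CCl4 livers and at 226, 224 and 208 CPM in control livers (log2 fold change -0.63, SE 0.07, adjusted p = 9.35e-05). Mbl2, the other lectin, stood at 327, 339 and 249 CPM in CCl4 livers and at 318, 337 and 330.4 CPM in control livers, and was not called (-0.11, 95% interval -0.36 to 0.14, adjusted p = 0.460). CCl4 replicate 3 lay below the control range, and without it the log2 fold change of Mbl2 was 0.02 (adjusted p = 0.839). The ratio of Mbl1 to Mbl2 counts was 0.443, 0.439 and 0.530 in CCl4 livers and 0.711, 0.665 and 0.628 in control livers, without overlap.

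Fcna, the ficolin of mouse macrophages, stood at 18.5, 17.5 and 14.8 CPM in CCl4 livers and at 27.5, 25.9 and 27.7 CPM in control livers. Its log2 fold change was -0.67 (SE 0.09, adjusted p = 3.63e-04), opposite in sign to the C1q chains and to all 10 macrophage and monocyte markers. Of the 8 Kupffer cell markers, Timd4 (-0.97) and Cd163 (-0.87) also fell. Vsig4 (0.91), Cd5l (1.23) and Clec1b (0.87) rose, and the other 3 were not called. Masp1 stood at 203, 187 and 185 CPM in CCl4 livers and at 250.3, 250.3 and 271 CPM in control livers (-0.42, SE 0.06, adjusted p = 6.45e-04). Masp2 stood at 134, 136 and 126 CPM in CCl4 livers and at 163, 164 and 168 CPM in control livers (-0.32, SE 0.06, adjusted p = 0.00146). The groups did not overlap for any of these 3 genes. Masp2 shares 54.9% of its exon bases with Tardbp on the other strand, and the strand setting of the counting is not given, so its value is uncertain.

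C4 and C2 form the C3 convertase of the classical and lectin pathways, and C3 is the protein on which all pathways meet. C3 (ENSMUSG00000024164) stood at 11346, 10382 and 10248 CPM in CCl4 livers and at 7609.5, 7581 and 7825 CPM in control livers. It rose 1.39-fold (log2 fold change 0.47, SE 0.07, 95% interval 0.32 to 0.63, adjusted p = 5.36e-04), with every CCl4 library above every control library. Of the 10 hepatocyte markers, Trf (transferrin, 0.47, adjusted p = 0.00172), Ambp (0.53, adjusted p = 7.66e-04) and Ttr (0.24, adjusted p = 0.0176) rose. Apoa2 (-0.44), Apob (-0.36) and Apoh (-0.19) fell. The other 4, among them Alb (0.04, adjusted p = 0.655), were not called. C4b, which encodes mouse C4, stood at 1658, 1585 and 1279.6 CPM in CCl4 livers and at 1579, 1494 and 1348 CPM in control livers. The groups overlapped and the gene was not called (0.03, 95% interval -0.20 to 0.27, adjusted p = 0.825), with values of -0.04 to 0.18 over the alternatives. C4a, its near copy, averaged 17.2 ± 4.10 CPM in CCl4 livers and 13.3 ± 2.18 CPM in control livers (SD, n = 3 each, edgeR adjusted p = 0.149). How reads that match both C4b and C4a were treated is not given, so the values of both are uncertain.

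C2 stood at 37.0, 32.5 and 31.0 CPM in CCl4 livers and at 41.8, 43.2 and 35.8 CPM in control livers, with CCl4 replicate 1 above control replicate 3. It fell by 0.26 (SE 0.09, adjusted p = 0.0403). That call is not firm: it was lost under 9 of 14 alternatives, at adjusted p-values of 0.0522 to 0.304, among them leaving out CCl4 replicate 2 (0.120), CCl4 replicate 3 (0.0925), control replicate 1 (0.122) or control replicate 2 (0.119). The gene shares 42.8% of its exon bases with the readthrough gene Gm20547 on the same strand.

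The alternative pathway amplifies C3 cleavage through factor B, factor D and properdin. Cfp, which encodes properdin, stood at 28.4, 26.4 and 25.5 CPM in CCl4 livers and at 18.4, 21.8 and 20.5 CPM in control livers. It rose 1.32-fold (log2 fold change 0.40, SE 0.08, adjusted p = 0.00348), and the groups did not overlap. Cfb, factor B, stood at 8.97, 9.002 and 6.29 CPM in CCl4 livers and at 7.83, 7.56 and 7.16 CPM in control livers (0.11, 95% interval -0.23 to 0.44, adjusted p = 0.602). The level of Cfb is uncertain. In GENCODE M21, 79.5% of the exon bases of Cfb are also exon bases of Gm20547, and that gene was listed at 0 counts in all 6 libraries.

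Cfd, which encodes factor D (adipsin), a protease made mainly by fat cells, had the largest fitted fold change of the 32 genes and the widest standard error. It had 0, 2 and 0 counts in CCl4 replicates 1, 2 and 3, against 224, 28 and 384 counts in control replicates 1, 2 and 3. Pooled over libraries, the CCl4 to control ratio of counts per total was 0.00323, with an exact 95% interval of 3.91e-04 to 0.0117 that covers counting error only. The edgeR call had an adjusted p of 0.0270 (log2 fold change -8.16, SE 1.89) and was lost without CCl4 replicate 1 (0.0963), CCl4 replicate 2 (0.172), CCl4 replicate 3 (0.117) or control replicate 1 (0.0513), with no filter on low counts (0.0557) and with limma-voom (0.0517). Without CCl4 replicate 2 the log2 fold change was -10.76. Cfd passed the filter on low counts only through the control libraries, where it was high. Its call thus adds nothing to the counts above.

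Genes of adipocytes moved with Cfd across the control libraries. Adipoq, the adiponectin gene, had 0, 1 and 0 counts in CCl4 livers, against 87, 4 and 119 counts in control replicates 1, 2 and 3. Plin1, a protein of the fat droplet, had 0, 0 and 1 counts in CCl4 livers, against 35, 3 and 103 in control livers, and Retn, resistin, had 1, 0 and 0 against 32, 4 and 41. Lep, leptin, had no count in any CCl4 library or in control replicate 2, and 3 counts each in control replicates 1 and 3. The 8 adipocyte markers together held 17.5 to 19.8 CPM in CCl4 livers and 23.9 to 57.0 CPM in control livers. Of these 8, 4 passed the filter on low counts and 1, Plin4, was called lower. Control replicate 2 was thus the lowest control library for Cfd, Adipoq, Plin1, Lep and Retn alike. The part of adipocyte RNA in the difference in Cfd was not tested.

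**Figure D3:**
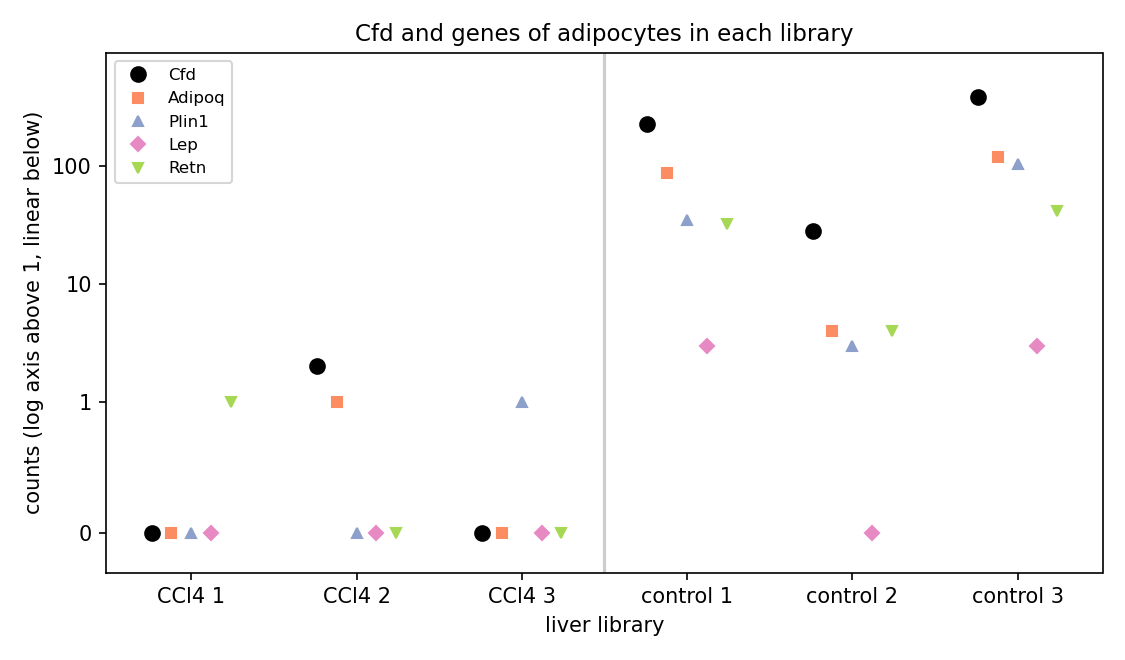
Counts of Cfd (black circles) and of 4 genes of adipocytes in the 3 CCl4 libraries (left) and the 3 control libraries (right), on an axis that is logarithmic above 1 and linear below it. Cfd has 224 and 384 counts in the control libraries where Adipoq has 87 and 119, and 28 counts where Adipoq has 4.

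**Figure D4:**
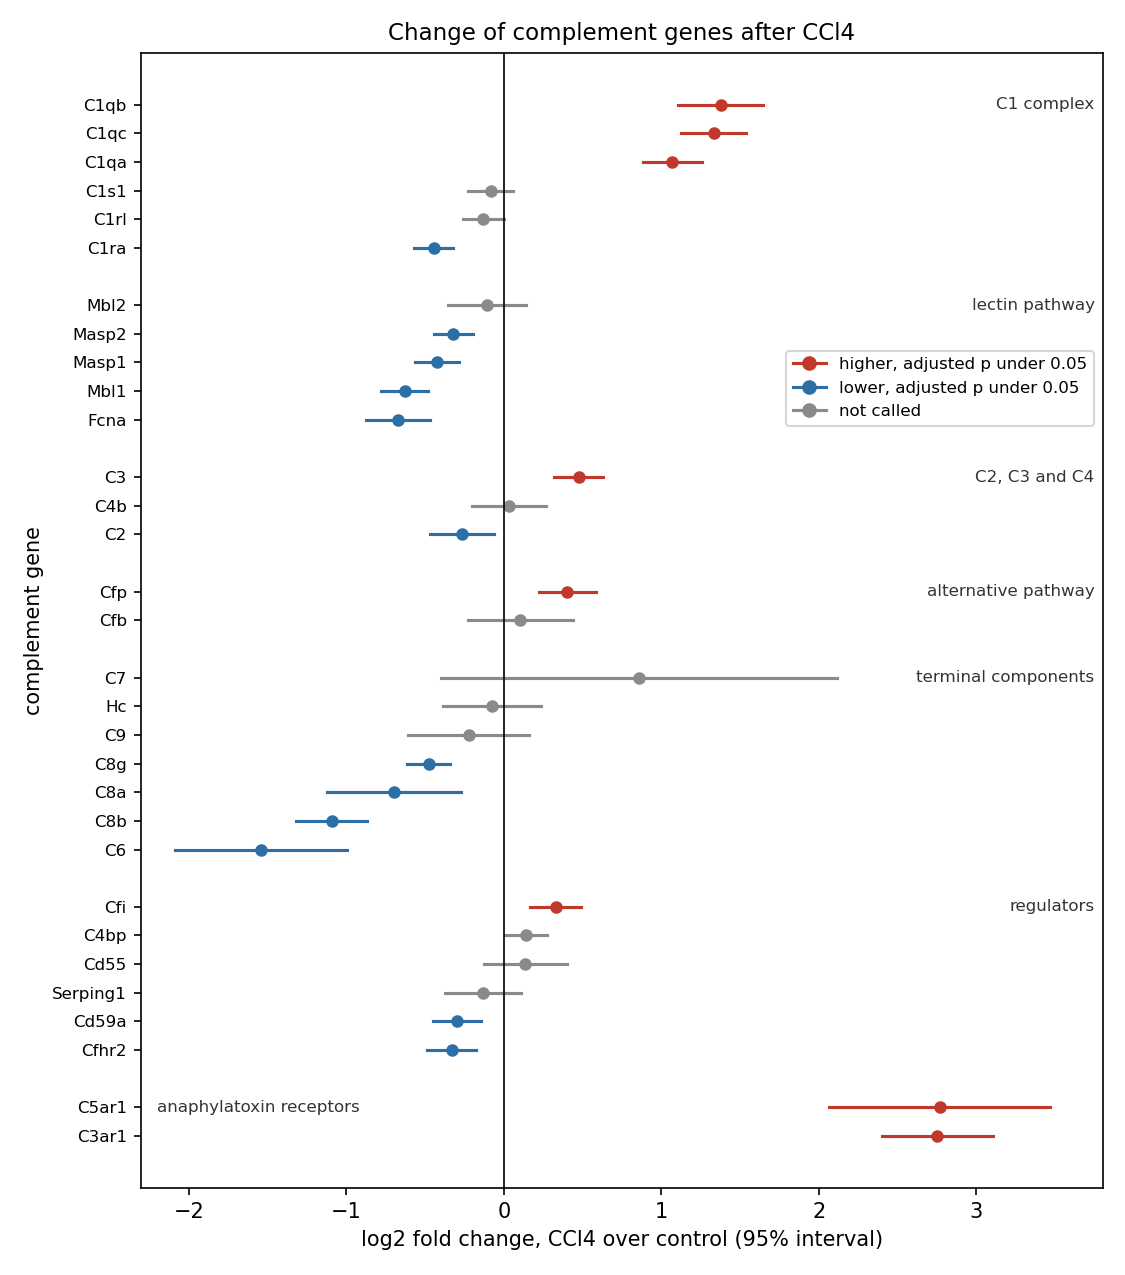
Log2 fold change of 31 complement genes, CCl4 over control, with 95% intervals from edgeR's quasi-likelihood test, grouped by role and coloured by call at an adjusted p under 0.05. Cfd, at -8.16, lies outside the axis. The receptors C5ar1 (2.77) and C3ar1 (2.75) lie farthest to the right and C6 (-1.54) farthest to the left.

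Of the terminal components, C6 and the chains of C8 fell, and C5, C7 and C9 were not called. C6, which binds C5b, stood at 117, 126 and 76.4 CPM in CCl4 livers and at 289.9, 363 and 277 CPM in control livers. It was 2.91-fold lower in CCl4 livers (log2 fold change -1.54, SE 0.22, adjusted p = 0.00307), with no overlap. Without CCl4 replicate 3, the lowest library, the log2 fold change was -1.35 (adjusted p = 1.37e-04).

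C8 inserts into the membrane and is built of alpha, beta and gamma chains encoded by C8a, C8b and C8g. C8b stood at 225, 234 and 185 CPM in CCl4 livers and at 500.1, 454 and 419 CPM in control livers (log2 fold change -1.09, SE 0.10, adjusted p = 5.64e-05). C8a stood at 781, 726 and 481 CPM in CCl4 livers and at 1149, 1033 and 1042 CPM in control livers (-0.70, SE 0.18, adjusted p = 0.0201). C8g stood at 231, 215 and 218 CPM in CCl4 livers and at 319, 294 and 312 CPM in control livers (-0.48, SE 0.06, adjusted p = 2.64e-04). All 3 chains lay lower in every CCl4 library than in any control library. The call of C8a was lost without control replicate 1 (adjusted p = 0.0573), without control replicate 3 (0.0530) and with no filter on low counts (0.104). Without CCl4 replicate 3 C8a was called at -0.51 (adjusted p = 1.90e-04). The ratio of C8b to C8a counts was 0.288, 0.322 and 0.385 in CCl4 livers and 0.435, 0.439 and 0.402 in control livers, without overlap. That of C8g to C8a counts was 0.296, 0.296 and 0.452 in CCl4 livers and 0.278, 0.284 and 0.299 in control livers, with overlap. Without CCl4 replicate 3 the log2 fold change of C8g was -0.47, and differences between the chains were not tested.

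Hc encodes C5, which is cut to the anaphylatoxin C5a and to C5b, the base of the pore. It stood at 1293, 1197 and 879.9 CPM in CCl4 livers and at 1249.5, 1171 and 1135 CPM in control livers, and was not called (-0.08, 95% interval -0.39 to 0.23, adjusted p = 0.680). CCl4 replicate 3 alone lay below the control range, and without it the log2 fold change was 0.07 (adjusted p = 0.441). C9, which forms the ring of the pore, stood at 531, 504 and 369.9 CPM in CCl4 livers and at 591, 592 and 457 CPM in control livers (-0.22, 95% interval -0.61 to 0.16, adjusted p = 0.315). The ratio of C6 to C9 counts was 0.226 ± 0.0221 in CCl4 livers and 0.570 ± 0.0686 in control livers (SD, n = 3 each). C7, which anchors the growing complex to the membrane, was scarce, at 3.43, 1.88 and 2.16 CPM in CCl4 livers and 2.66, 0.811 and 0.636 CPM in control livers. It was not called (0.86, 95% interval -0.40 to 2.11, adjusted p = 0.242), but without control replicate 1, the highest control library, it was called at 1.77 (adjusted p = 0.00869).

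Regulators keep the cascade off host cells. Cfi, factor I, the protease that cuts C3b and C4b, stood at 872, 788 and 752 CPM in CCl4 livers and at 662, 639 and 620.4 CPM in control livers. It rose 1.26-fold (log2 fold change 0.33, SE 0.07, adjusted p = 0.00490), with no overlap. Cfhr2, which encodes a soluble plasma protein of the complement control family, stood at 487, 462 and 417 CPM in CCl4 livers and at 589, 562 and 568 CPM in control livers, and fell by 0.33 (SE 0.07, adjusted p = 0.00426).

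C4bp, the C4b-binding protein, stood at 792, 815 and 748 CPM in CCl4 livers and at 718, 709.8 and 709 CPM in control livers. Its groups did not overlap, but it was not called (0.14, 95% interval 0.01 to 0.28, adjusted p = 0.0882). It was called without CCl4 replicate 3 (0.17, adjusted p = 0.0342), with upper quartile scaling (0.23, adjusted p = 0.0121) and with library size alone (0.29, adjusted p = 0.00345). Serping1, the C1 inhibitor, stood at 796, 728 and 591 CPM in CCl4 livers and at 819, 778 and 717 CPM in control livers (-0.13, 95% interval -0.37 to 0.11, adjusted p = 0.364). The membrane regulator Cd59a, which blocks the pore, stood at 42.3, 41.5 and 42.5 CPM in CCl4 livers and at 46.6, 54.0 and 54.5 CPM in control livers, and fell by 0.30 (SE 0.07, adjusted p = 0.00705). Cd55, decay-accelerating factor, averaged 17.2 ± 1.62 CPM in CCl4 livers and 15.6 ± 2.23 CPM in control livers (SD, n = 3 each) and was not called (edgeR adjusted p = 0.379).

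The receptors of the anaphylatoxins C3a and C5a, which leukocytes carry, showed the largest rises of the set. C3ar1 (ENSMUSG00000040552) stood at 23.0, 21.8 and 20.1 CPM in CCl4 livers and at 2.98, 4.16 and 2.49 CPM in control livers. It rose 6.74-fold (log2 fold change 2.75, SE 0.16, adjusted p = 4.27e-06). C5ar1 (ENSMUSG00000049130) stood at 4.79, 7.12 and 3.83 CPM in CCl4 livers and at 0.745, 1.03 and 0.530 CPM in control livers. It rose 6.80-fold (2.77, SE 0.31, adjusted p = 1.57e-04). Every CCl4 library lay above every control library for both genes. C5ar2, the second C5a receptor and the chromosomal neighbour of C5ar1, averaged 3.72 ± 0.0374 CPM in CCl4 livers and 2.94 ± 0.638 CPM in control livers (SD, n = 3 each) and was not called (edgeR adjusted p = 0.165).

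The log2 fold changes of the 10 macrophage and monocyte markers ran from 0.96 (Csf1r) to 2.10 (Lyz2), all below those of both receptors. C3ar1 was also compared with single macrophage genes. The ratio of C3ar1 to Csf1r counts, the receptor gene of macrophage growth factor, was 0.219, 0.234 and 0.170 in CCl4 livers and 0.0592, 0.0661 and 0.0505 in control livers. Relative to Adgre1, which encodes F4/80, the C3ar1 counts were 0.499 ± 0.0517 in CCl4 livers and 0.174 ± 0.00928 in control livers (SD, n = 3 each). Relative to Cd68 they were 0.783, 0.651 and 0.788 in CCl4 livers and 0.378, 0.554 and 0.315 in control livers. The ratio was higher in every CCl4 library beside each of these markers, which were chosen after their values were seen. Neutrophil markers also moved, with 6 of 8 passing the filter and all 6 higher, at log2 fold changes from 1.44 (Csf3r) to 2.34 (Retnlg). The sum of the 8 markers was 30.9 to 34.2 CPM in CCl4 livers and 7.47 to 11.2 CPM in control livers. Ly6g, the defining one, had 5 counts over the CCl4 livers and none in control livers. The part of macrophage and neutrophil RNA in the receptor values was not tested.

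A list of 34 other complement genes was looked at beside the set. Of these, 33 had a row in the table and 28 passed the filter. Of the 28, 9 were higher, 10 lower and 9 not called, with a median log2 fold change of 0.11. Calls in either direction made up 67.9% of the 28, against 41.3% of all genes tested (21.2% higher and 20.1% lower). The split of the list depended on the scaling, with 13 higher and 5 lower when library size alone was used. That scaling also moved the calls over all genes, to 4824 higher and 1676 lower from 3303 and 3124. Of the list, 6 were lower without CCl4 replicate 2 or without control replicate 3. Itgax (2.24, SE 0.14, adjusted p = 7.84e-06), Itgam (2.57, SE 0.38, adjusted p = 6.16e-04) and Itgb2 (1.46, SE 0.13, adjusted p = 5.52e-05) encode the chains of complement receptors 3 and 4, and all 3 rose. Cr2, complement receptor 2, was not called (0.95, SE 0.38, adjusted p = 0.0711), but was called under 5 of the 14 alternatives (0.0268 to 0.0443), 2 of them without CCl4 replicate 3 and without control replicate 1. Itgax stood at 11.5, 9.45 and 9.87 CPM in CCl4 livers and at 2.34, 2.27 and 1.91 CPM in control livers. Vsig4, the C3b receptor of Kupffer cells and one of the 8 markers of that list, stood at 46.6, 41.6 and 49.4 CPM in CCl4 livers and at 23.7, 28.0 and 21.6 CPM in control livers (0.91, adjusted p = 1.78e-04). Cd93, a surface protein first described as a C1q receptor, rose by 1.66 (adjusted p = 1.52e-05).

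Regulators outside the 32 genes moved in both directions. Susd4, a sushi domain protein described as a complement inhibitor, stood at 0.504, 0.841 and 1.23 CPM in CCl4 livers and at 22.2, 25.2 and 20.9 CPM in control livers. It was 26.3-fold lower in CCl4 livers (log2 fold change -4.72, SE 0.21, adjusted p = 1.69e-06), the largest fall of the list. Clu, clusterin, which holds back the pore in plasma, rose by 0.30 (SE 0.07, adjusted p = 0.00507). Vtn, vitronectin, which shares that role, averaged 2403 ± 149 CPM in CCl4 livers and 2188 ± 94.5 CPM in control livers (SD, n = 3 each, edgeR adjusted p = 0.156), and was called without CCl4 replicate 3 (0.18, adjusted p = 0.0423). Cr1l, which encodes Crry, the broad membrane regulator of mice, stood at 50.3, 51.1 and 47.4 CPM in CCl4 livers and at 49.9, 49.4 and 47.9 CPM in control livers (0.02, 95% interval -0.11 to 0.14, adjusted p = 0.838).

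Cfhr3 (-0.48, adjusted p = 0.00106) fell as Cfhr2 did. These genes resemble each other in sequence, so their separate values are uncertain. The collectins Colec10 (-0.90, adjusted p = 5.69e-04) and Colec12 (-0.60, adjusted p = 3.91e-04) fell, and Colec11 was not called (0.09, adjusted p = 0.503). Calls of Pros1 (protein S, 0.19), Crp (-0.28), C1rb (-0.68), Cd59b (-0.72) and Cpn2 (-0.24) were each lost under 6 or more of the 14 alternatives, at adjusted p-values of 0.0501 to 0.305. Single libraries that ended a call when left out were CCl4 replicates 1 and 2 for Pros1, C1rb and Cd59b and CCl4 replicates 2 and 3 for Crp and Cpn2. Among the controls they were replicates 1 and 3 for Pros1, Cd59b and Cpn2, replicates 2 and 3 for C1rb, and any of the 3 for Crp. Cpn1, a chain of carboxypeptidase N, which inactivates anaphylatoxins, fell by 0.26 (adjusted p = 0.00630), a call lost with library size alone (0.175).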

How the data were processed

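Messenger RNA of 6 mouse liver libraries was measured, 3 of CCl4 and 3 of oil controls. The authors deposited 1 table of unnormalized counts, with a row for each gene. Per the series' design text, the authors trimmed and filtered reads and aligned them with HISAT2, and per the submitters' processing notes reads were counted with featureCounts. The sources used here name no version, build or annotation and do not say how strand and multimapping reads were handled.

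Columns were mapped to samples by title. Of 55359 Ensembl identifiers, 52083 matched a symbol, taken by identifier from GENCODE M21, which also gave exon lengths and overlaps. The test was that of edgeR 4.0.16 under R 4.3.3 (filterByExpr, TMM, robust glmQLFit and glmQLFTest, Benjamini-Hochberg adjustment over 15579 genes, threshold 0.05). Each SE was derived from the fold change and its F statistic, with intervals at 95%. The test was run on simulated counts with the same spread for every gene and few changed genes, unlike these data. That check covers the running of the test and not its error rate in these libraries. Every pair of replicates differed by more than sampling noise (mean chi-square per gene 5.71 to 25.8). The library totals limit the precision for genes under 1 CPM, and intervals from counts cover counting error only.

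All 32 genes were named. Of the other complement genes, Cr1l, Clu, Vtn and Vsig4 were named whatever their result and others when called without overlap of the groups, and some genes this rule names are not reported here. C4a, C5ar2, Cr2 and Colec11, single marker genes and the ratios of genes were added after their values were seen. The members and lists were chosen with earlier results of these data known. The lists of endothelial and B cell markers had 2 of 8 genes lower and 1 of 4 higher, and that of stellate cells and fibroblasts 9 of 10 higher. Alternatives were other scalings, no filter or a stricter one , DESeq2 1.42.0, limma-voom (limma 3.58.1), a replicate block and leaving out each library. The share of calls among genes with a mean of at least 10 CPM was added after seeing the data. Start site sequences are from RefSeq (GRCm38.p6).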

Additional observations from a re-analysis of the deposited data

How the results depend on the processing

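No called gene of the 32 changed direction under any of the 14 alternatives, and 24 of the 32 kept the side of the threshold in all of them. Of the 448 values recomputed for the 32 genes, 19 lost a call and 7 gained one. Counts of members higher and lower were 8 to 9 and 10 to 14. With library size alone, the median over all genes became 0.147 (log2), with 4824 genes higher and 1676 lower, against 3303 and 3124. It also left 5 other complement genes lower, against 10, ended the call of Cd59a (adjusted p = 0.117) and turned the uncalled values of C1rl, C1s1, Mbl2, Hc and Serping1 to 0.01 to 0.07. Leaving out single libraries gave 6 to 9 other complement genes lower and 7 to 12 higher, and 2443 to 3103 lower and 2706 to 3305 higher among all genes, with 10 to 13 members lower. The mean log2 ratio of the C1q sum to macrophage markers differed by -0.29 between CCl4 and control livers (-0.31 to -0.27 without single libraries), and by 0.60 with Kupffer cell markers.

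The replicate numbers of the titles were not taken as pairing the libraries, since the sources used here do not say that they pair animals. Same-numbered libraries deviated together at correlations of 0.0483, 0.004 and 0.0635, and the other pairs at -0.0803 to 0.0365. With the replicate number as a block, 9 members were higher and 14 lower, with C7 (adjusted p = 0.0292) and C9 (0.0146) added. The other complement genes then counted 12 higher and 10 lower, and all genes 3298 and 3118. Each control library correlated best with the CCl4 library of its number for replicates 1 and 3 and not for replicate 2. Depth limits statements on Cfd, C7, C5ar1 and C3ar1, with under 100 counts in some libraries.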

Other observations

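Several complement genes that lie next to each other on the chromosome, with no other protein-coding gene between them in GENCODE M21, had unlike values. Apcs, which encodes serum amyloid P, a main acute-phase protein of mice, stood at 269, 257 and 174 CPM in CCl4 livers and at 89.1, 88.3 and 83.7 CPM in control livers (log2 fold change 1.42, SE 0.16, edgeR adjusted p = 8.00e-04). Its neighbour Crp, C-reactive protein, which is only weakly induced in mice, stood at 410.3, 353 and 314 CPM in CCl4 livers and at 459, 413 and 435 CPM in control livers (-0.28, adjusted p = 0.0404). C1rl, C1ra and C1s1 are neighbours, and of these C1ra fell while the other two were not called. By contrast the neighbours C1qb, C1qc and C1qa all rose, and C8b and C8a both fell. The difference between neighbours was not tested.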
